A study of Drosophila melanogaster with 10 samples.

Results

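Gene expression was compared in wing imaginal discs of Drosophila melanogaster between the ends of the third larval instar as sampled, 48 h and 6 h past the molt that opens it. The discs came from the strain yw in every library, the 48 h larvae were at the wandering stage, when they leave the food, and the labels name no treatment or transgene. The comparison used 4 of the 10 libraries of the series, replicates A and B of each time, and 10453 of the 13041 genes of the table, those with a value of at least 10 in 2 or more of the 10 libraries. The other times (15, 25 and 35 h) are given only to place the ends.

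The wing disc is an epithelial sac that grows through larval life and gives rise to the adult wing blade, hinge and notum. Early in the third instar its regions are set up by the morphogens Wingless, Dpp and Hedgehog and by Notch and EGF receptor signalling. At the end of the instar a pulse of the steroid hormone ecdysone, with its receptor EcR, ends feeding and starts metamorphosis, during which the disc everts and lays down adult cuticle.

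The recovered reads were 33846755 and 38003104 in 48 h A and B, against 30993706 and 22198068 in 6 h A and B. All values below are signal, the deposited read count divided by the size factor of its library, and 1 read was worth 0.669 and 0.596 in 48 h A and B and 0.856 and 1.33 in 6 h A and B. Signal is not scaled for gene length, so values are compared between libraries of a gene and not between genes. Between replicates, Spearman's coefficient over all genes tested was 0.994 at 48 h and 0.976 at 6 h, and 742 genes at 48 h against 1131 at 6 h lay more than 2-fold apart between replicates; genes are not independent replicates. Changes are log2(signal + 1) at 48 h minus 6 h, each with its limma standard error (SE), and adjusted p-values are from limma's two-sided moderated test with Benjamini-Hochberg adjustment over all genes tested. The labels do not say whether replicates came from separate cultures, so p-values measure only the spread between these libraries. Whether reads were counted by strand is not given in the sources used here: genes that overlap another gene (among those named below Sema2b, Nrt, Egfr, tkv, pk, Hsp27 and Hsp67Ba) and members of clustered families (trypsins, GstD, Ugt, P450 and Lcp65A genes) may hold reads of a neighbour or a close copy.

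More genes were lower than higher at 48 h, and large changes were mostly decreases. At an adjusted p under 0.05, 3027 genes were higher (29.0% of those tested) and 3949 were lower (37.8%), while 3477 did not pass, so 66.7% were called in either direction. Both 48 h libraries lay above both 6 h libraries in 40.0% of the genes tested and below them in 46.7%. Lack of overlap between the times was thus the common case, and it does not set the genes named below apart. At least 2-fold, 808 genes were higher (7.73%) and 2721 lower (26.0%). Of the genes that changed at least 16-fold, 65 were higher and 1128 lower. The 1128 genes took 0.180% and 0.198% of the signal of all genes tested in 48 h A and B, against 10.2% and 9.10% in 6 h A and B. Their median signal was 4.54 at 48 h and 429 at 6 h. In contrast, the 65 genes took 1.10% and 0.927% of the signal in the 48 h libraries, against 0.00813% and 0.0100% in the 6 h libraries. The split between directions depends on how libraries are scaled. Called genes were higher in 43.4% of cases with the deposited scaling, in 58.4% when the 4 libraries shared a common median (4390 higher, 3130 lower) and in 65.3% after quantile normalization (5072 higher, 2692 lower). The common median moved all changes up by 0.32 on the log2 scale, so a change is best read beside the median of all genes tested, which was -0.095. The number of higher genes also fell to 1716 without 48 h A and to 1552 without 48 h B.

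**Figure D1:**
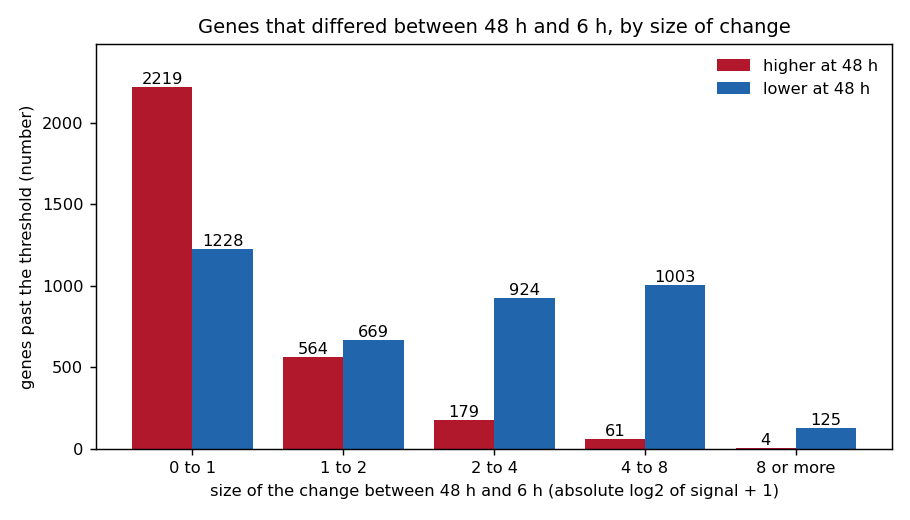
Number of genes past the threshold (y axis) by the absolute log2 change of signal + 1 between 48 h and 6 h (x axis), with genes higher at 48 h in red and genes lower at 48 h in blue. Below a change of 1 there were 2219 higher and 1228 lower genes, and at a change of 8 or more there were 4 higher and 125 lower genes.

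The labelled tissue was checked against markers. All 10 wing disc epithelium markers were higher at 48 h, and their summed signal was 44416 and 45627 in 48 h A and B, against 18896 and 18839 in 6 h A and B. Markers of gut, muscle and haemocytes moved in the opposite direction. The 10 gut markers, digestive enzymes such as trypsins and maltases, were all lower, with a summed signal of 375 and 375 in 48 h A and B, against 207023 and 84504 in 6 h A and B. The 3 differentiated muscle markers found by name (TpnC73F, Act57B and Tm2) were all lower (5958 and 4259 at 48 h, against 155041 and 215241 at 6 h). Others listed, such as Mhc and sls, were not found. Also lower were 9 of 11 haemocyte markers (13132 and 15851 at 48 h, against 128498 and 195351 at 6 h). Fewer gut and haemocyte markers passed without 6 h B. The median log2 change was then -8.17 for gut and -2.27 for haemocytes, against -8.05 and -2.37 with all 4 libraries. No library of the 4 had 0 for any member found in these 4 lists. Fat body markers were split, with 3 higher and 4 lower of 9, and their sums did not overlap (45423 and 111096 at 48 h, against 255707 and 525102 at 6 h). These fat body counts changed to 1 higher and 2 lower without 6 h A, and to 1 lower without 6 h B. Tracheal sums lay close together at both times (25485 and 23362 at 48 h, against 25665 and 27390 at 6 h), with 2 markers higher and 2 lower of 7; the lower count was 1 without 48 h B and 0 without 6 h A or 6 h B. Salivary gland sums overlapped between times (459 and 549 at 48 h, against 527 and 782 at 6 h), although 7 of 10 of these markers were higher and 2 lower; 4 were higher without 48 h A or 48 h B, and 1 was lower without 6 h B. No salivary gland marker was without a read at 48 h, while 5 had none in 6 h A and 1 had none in 6 h B. Neuronal markers were higher in 1 and lower in 5 of 8, with sums of 1065 and 1065 at 48 h and 2024 and 1451 at 6 h; 0 were higher and 2 lower without 48 h A or 48 h B. Glial markers were higher in 1 and lower in 4 of 6, with sums of 6759 and 7562 at 48 h and 8527 and 8191 at 6 h; 2 were higher without 6 h A, and 2 were lower without 6 h A or 6 h B. The 2 adult muscle precursor markers found by name, stumps and zfh1, did not pass (summed signal 2524 and 2241 at 48 h, against 2223 and 2128 at 6 h). Others listed, such as twi and Mef2, were not found. Fewer cells of a type, less RNA per cell and less tissue carried over with the discs cannot be told apart here. At 6 h, gut sums were higher in replicate A, and muscle, haemocyte and fat body sums in replicate B. The part of these other tissues in the gene groups below was not tested.

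**Figure D2:**
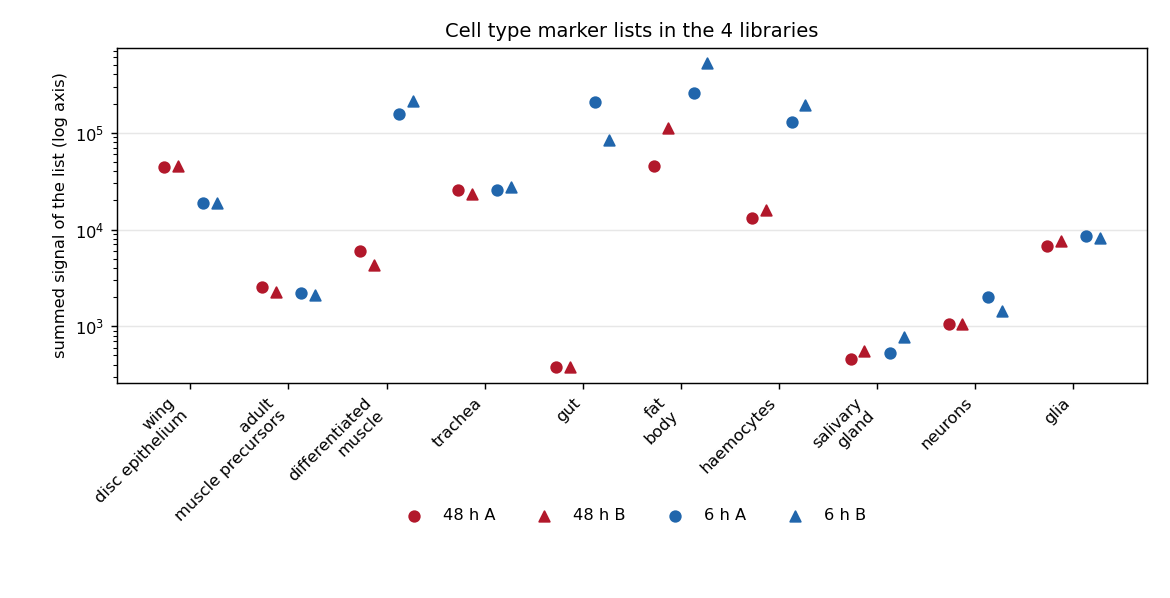
Summed signal (y axis, log scale) of each cell type marker list (x axis) in 48 h A and B (red) and 6 h A and B (blue), with replicate A as circles and B as triangles. Disc epithelium markers stood at 44416 and 45627 at 48 h and at 18896 and 18839 at 6 h, while gut markers stood at 375 in each 48 h library and at 84504 or more in the 6 h libraries.

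Genes that respond to ecdysone were among the largest rises. ImpE2, a secreted product of everting discs (FBgn0001254, chromosome 3L, 3510974 to 3512681, minus strand, dm6), had 78300.3 and 49804 in 48 h A and B, against 22.3 and 18.7 in 6 h A and B (log2 change 11.51, SE 0.25, adjusted p 0.000361). Both 48 h libraries stood far above both 6 h libraries. ImpE1, of the same class of ecdysone-inducible genes, had 7727 and 2687 at 48 h, against 71.1 and 101 at 6 h, and ImpE3 had 2363 and 1352, against 64.2 and 53.4. In all 3 genes 48 h A was the higher 48 h library, and the times did not overlap. Blimp-1, an ecdysone-induced repressor, differed even more between the 48 h replicates (3474 and 671, against 8.56 and 18.7 at 6 h), and its call (log2 change 6.80, adjusted p 0.00426) was lost without 6 h A (adjusted p 0.0639) or 6 h B (0.0517). The receptor gene EcR itself rose modestly, to 4971 and 5624 at 48 h, against 3095 and 3284 at 6 h. Members that fell included Hr38, a nuclear receptor that binds the partner of EcR (3.34 and 2.98 at 48 h, against 195 and 376 at 6 h), and Eip63F-1, a calcium-binding protein (35.4 and 28.6, against 736 and 574). Of 22 ecdysone receptor and response genes tested, 13 were higher and 5 lower, with a median log2 change of 0.83.

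Small heat shock genes, chaperones of which several are ecdysone-inducible in Drosophila, rose beside them. Hsp23 (FBgn0001224, chromosome 3L, 9381882 to 9382765, plus strand) had 64885 and 68799 at 48 h, against 223 and 303 at 6 h (254-fold higher, adjusted p 0.000361). Hsp27 had 28164 and 25904 at 48 h, against 611 and 793 at 6 h, and Hsp67Ba had 1210.0 and 1252, against 5.99 and 6.67. The fourth riser was Hsp26, with 4631 and 2832 against 254 and 403. All 4 lie on 3L and their times did not overlap; of the 5 members tested (of 7 listed), CG7409, which did not pass, had 29.4 and 28.6 at 48 h and 47.1 and 50.7 at 6 h. Hsp83, the Hsp90 chaperone, went the other way (99592 and 75487 at 48 h, against 157793 and 168957 at 6 h, log2 change -0.91, adjusted p 0.00985). Its call was lost after quantile normalization (adjusted p 0.202) and without 6 h A (0.0917) or 6 h B (0.107).

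Genes that mark developmental age and genes of juvenile hormone, which opposes metamorphosis in insects, split between directions. chinmo, a zinc finger protein that marks early larval identity, had 1264 and 1198 at 48 h, against 9825 and 9509 at 6 h, and br, which encodes the late larval Broad factors, had 24338 and 22154, against 3241 and 4292. The RNA-binding proteins showed the same pairing: Imp fell to 2169 and 2126 at 48 h, against 4694 and 6400.1 at 6 h, while Syp rose to 38254 and 38173, against 7193 and 10198. gce and Met encode the juvenile hormone receptors. gce fell to 22.7 and 38.1 at 48 h, against 336 and 343 at 6 h (log2 change -3.48, SE 0.32, adjusted p 0.0016), whereas Met did not pass (604 and 663 at 48 h, 603 and 487 at 6 h). Kr-h1, a juvenile hormone target that represses metamorphosis, rose to 1517 and 1537, against 432 and 406. Of 10 members tested, 3 were higher and 5 lower, beside 29.0% higher and 37.8% lower of all genes tested. Their median of -0.14 was -0.30 without 6 h A and turned positive after quantile normalization (0.06) and with a common median (0.18).

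**Figure D3:**
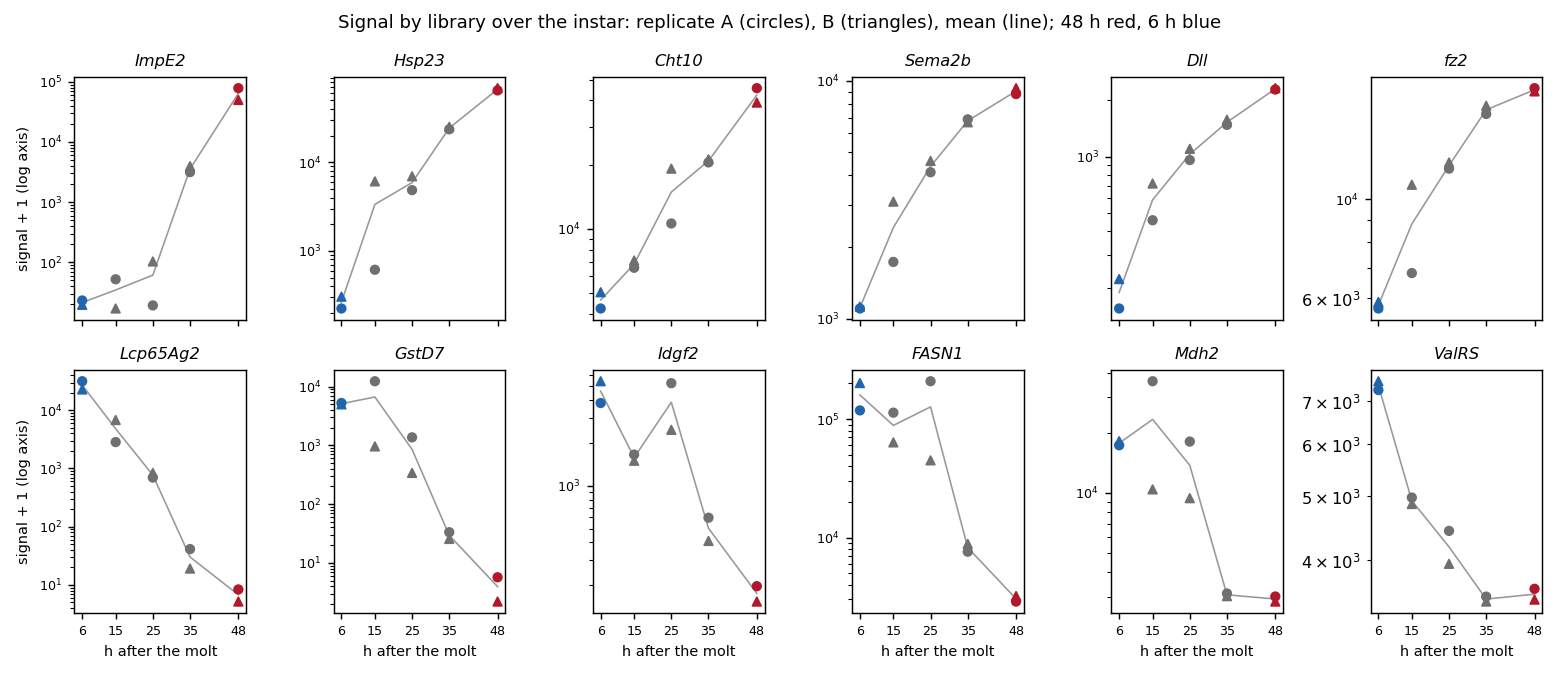
Signal + 1 (y axis, log scale) in every library at 6, 15, 25, 35 and 48 h after the molt (x axis) for 6 genes that rose (top row) and 6 that fell (bottom row); circles are replicate A, triangles replicate B, the line joins the means, 48 h is red and 6 h blue. ImpE2 had means of 20.5, 33.7 and 60.3 at 6, 15 and 25 h and 64052 at 48 h, while the means of Sema2b, Dll and fz2 rose at each time, and the highest means of GstD7 and Mdh2, at 15 h, rest on 15 h A (12322 and 36198), since 15 h B (957 and 10385) lay below both 6 h libraries in each.

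Morphogen pathways were higher at 48 h for most of their members, with rises among ligand, receptor and transduction genes but little change in dpp. In the Hedgehog pathway all 15 genes tested were higher (median log2 change 1.01). The ligand gene hh had 1804 and 1783 at 48 h, against 576 and 591 at 6 h. The co-receptor gene ihog had 7828 and 7791, against 2231 and 2245 (log2 change 1.80, SE 0.04, adjusted p 0.000361), and shf, which encodes a secreted factor that aids spread of the ligand, had 2531 and 2713, against 678 and 759. kn, a target that encodes a transcription factor of the central wing, had 755 and 730.4 at 48 h, against 47.1 and 78.7 at 6 h, the largest change of the list (log2 3.59). For each of these genes the replicates of a time lay far closer to each other than to the other time.

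Of 23 Wingless and Wnt genes tested, 19 were higher and 1 lower, with a median of 0.87. Wingless receptors rose: fz2 had 17789 and 17493 at 48 h, against 5673 and 5866 at 6 h, and its co-receptor gene arr had 12452 and 13308, against 3647 and 3547 (log2 changes 1.61 and 1.84). Notum, a secreted enzyme that inactivates Wingless, had 1310.3 and 1190.4 at 48 h, against 459.8 and 386 at 6 h. The lower member was Swim, a Wingless-binding secreted protein (268 and 140.0 at 48 h, against 1427 and 1168 at 6 h), which did not pass when 6 h A (adjusted p 0.0607) or 6 h B (0.0525) was left out. Among 25 Dpp and Activin genes 19 were higher and 1 lower, with a median of 0.77; 0 were lower without 48 h A or 6 h A. The receptor gene tkv had 13730.4 and 12743 at 48 h, against 4395 and 4448 at 6 h. magu, a secreted modulator of Dpp range, had 4077 and 4480.3, against 868 and 1082, and brk, the repressor of Dpp targets, had 2763 and 2959, against 470.1 and 723 (log2 changes 2.14 and 2.29). shn, the cofactor through which Dpp silences brk, did not pass (3852 and 3646 at 48 h, 2864 and 3720.5 at 6 h). The ligand gene dpp itself changed little, with a mean signal per kb of exon of 409 at 48 h and 383 at 6 h.

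Notch genes were higher in 17 of 18 tested (median 0.90), the exception being neur, which encodes a ubiquitin ligase for the ligand Delta (493 and 456 at 48 h, 432 and 371 at 6 h, adjusted p 0.146). Ocho and Tom, Bearded family inhibitors of neur function, had 245 and 246 at 48 h, against 48.8 and 34.7 at 6 h, and 3759 and 3356 at 48 h, against 1141 and 1166 at 6 h. The nuclear coactivator gene mam had 3921 and 3258 at 48 h, against 1199 and 1401 at 6 h. In the EGF receptor pathway 14 of 20 were higher and 1 lower (median 0.63); the lower count was 2 without 6 h A and 0 without any other library. The receptor gene Egfr had 17641 and 17435 at 48 h, against 7443 and 7162 at 6 h, the ligand gene Krn had 356 and 334, against 116 and 103, and kek1, a transmembrane inhibitor of the receptor, had 7255 and 7422, against 1226 and 1455 (log2 change 2.46, SE 0.10, adjusted p 0.00043). spi, the other widely used ligand, did not pass (3698 and 3475 at 48 h, 3188 and 2562 at 6 h).

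JAK-STAT genes were called in shares near those of all genes tested (29.0% higher, 37.8% lower). Of 11 tested, 3 were higher and 4 lower, the higher count was 1 without 48 h A or without 48 h B, and the median of -0.42 was -0.26 without 6 h A and turned to 0.12 after quantile normalization. The ligand gene upd1 fell to 102 and 115 at 48 h, against 380.2 and 388 at 6 h (log2 change -1.82, adjusted p 0.00124), and the feedback inhibitor gene Socs36E to 1831 and 1747, against 2831 and 3201. et, a receptor that dampens the pathway, had 89.6 and 116 at 48 h, against 517 and 743 at 6 h, while the receptor gene dome was higher (4808 and 4813, against 3504 and 3324).

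Transcription factors that specify the hinge, notum, wing margin and veins were higher at 48 h in 29 of 31 cases and lower in 0, with a median of 1.96. Dll, a homeobox factor of the wing margin (FBgn0000157, chromosome 2R, 24814822 to 24835667, plus strand), had 2279.6 and 2318 at 48 h, against 154 and 222 at 6 h (log2 change 3.63, SE 0.19, adjusted p 0.000582). B-H1, a homeobox factor of the notum, had 179.8 and 183 at 48 h, against 5.14 and 10.7 at 6 h. Doc2, a T-box protein made in hinge and notum, had 862 and 889, against 31.7 and 50.7, and dac, a nuclear factor also used in leg and eye, had 734 and 724, against 42 and 96.1. In the wing pouch, nub and pdm2, which encode POU factors, had 9642 and 9645 at 48 h, against 2916 and 3039.9 at 6 h, and 1163 and 1237 at 48 h, against 235 and 208 at 6 h. Relative to their means, the 48 h replicates of these 6 genes lay closer together than the 6 h replicates, and the times did not overlap in any of them.

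Cell recognition and guidance proteins, best known from growing axons, were higher in 24 of 25 tested, with a median of 1.43. Sema2b, a secreted semaphorin (FBgn0264273, chromosome 2R, 16386524 to 16431758, plus strand), had 8786 and 9305 at 48 h, against 1101 and 1119.6 at 6 h (log2 change 3.02, SE 0.05, adjusted p 0.000361). Nrt, a transmembrane adhesion protein, had 2633 and 2358 at 48 h, against 356 and 369.6 at 6 h. hbs, an immunoglobulin family recognition protein, had 2084 and 2083, against 313 and 306, and the netrin gene NetB had 1727 and 1869.6, against 369.9 and 292. All 4 lay above their 6 h values in both 48 h libraries. The exception was Toll-6, a Toll family receptor, with 2.01 and 0 at 48 h and 67.6 and 14.7 at 6 h; its call (adjusted p 0.0209) was lost in 4 alternatives, with adjusted p 0.105 after quantile normalization, 0.0592 and 0.116 when 48 h A or 48 h B was left out and 0.0974 when 6 h A was.

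Components of epithelial junctions rose by smaller factors. Septate junctions form the paracellular barrier of insect epithelia, and 19 of 22 of their genes were higher and 1 lower (median 0.85). The adhesion proteins Fas3 and Lac had 19319 and 21435 at 48 h, against 8925 and 8442 at 6 h, and 7653 and 7004 at 48 h, against 2681 and 3003 at 6 h. The lower member was hoka, which encodes a component of the smooth septate junctions of gut and renal tubule, with 0.669 and 0 at 48 h and 506 and 206 at 6 h. Of 23 apicobasal polarity and adherens junction genes 18 were higher and 0 lower (median 0.69). shg, the E-cadherin gene, had 20809 and 19870.2 at 48 h, against 9377 and 10289 at 6 h, and the recognition protein gene ed had 22521 and 22059.7, against 7343 and 8358. Planar cell polarity genes, which align wing hairs, were higher in 15 of 16, with a median of 1.02. Core components pk and stan had 2284 and 2148 at 48 h, against 492 and 562 at 6 h, and 8350.3 and 7765 at 48 h, against 3021 and 3168 at 6 h. The effector gene in, which acts downstream of the core group in hair placement, had 2234 and 2727, against 653 and 649.9 (log2 change 1.92, SE 0.11, adjusted p 0.000678).

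Apical matrix genes and surface proteases included some of the larger rises. Sb, a transmembrane serine protease needed for disc eversion, had 751 and 525 at 48 h, against 13.7 and 30.7 at 6 h (log2 change 4.87, SE 0.46, adjusted p 0.00177). Np, another membrane protease, had 584 and 455 at 48 h, against 24.8 and 44 at 6 h, and Mmp2, a matrix metalloprotease, had 1425 and 993, against 151 and 163. The list of surface proteases and inhibitors had 9 higher and 2 lower of 14 (median 1.17; 4 lower without 48 h A and 1 without 6 h B). The summed signal of that list was nevertheless lower at 48 h (60791 and 46771 in 48 h A and B, against 85639 and 116708 in 6 h A and B). Among 11 zona pellucida proteins, which shape the apical matrix, 7 were higher and 2 lower (median 0.98). nyo had 1835 and 1920.2 at 48 h, against 38.5 and 54.7 at 6 h, and neo had 5101 and 3805, against 419 and 362. nompA, a matrix protein of sensory organ dendrites, stood lower (2.67 and 2.98 at 48 h, against 33.4 and 42.7 at 6 h). Cht10, a chitinase gene (FBgn0250907, chromosome 2L, 22999574 to 23025915, minus strand), had 45633 and 39047 at 48 h, against 4244 and 5056 at 6 h (log2 change 3.19, adjusted p 0.000432).

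Basal matrix genes fell. The collagen IV genes Col4a1 and vkg had 4986 and 5779 at 48 h, against 61269 and 112767 at 6 h, and 4594 and 5729 at 48 h, against 56389.7 and 94851 at 6 h, with log2 changes of -3.95 and -3.83. Tig, a secreted ligand of integrins, had 1363 and 1690.3 at 48 h, against 20528 and 34185 at 6 h. In all 3 genes 6 h B was the highest library. LanA, a laminin subunit, did not pass, with 37441 and 36733 at 48 h and 37017 and 52618 at 6 h. The basement membrane list of 12 genes had 7 lower and 2 higher (median -2.32), and the higher count was 0 without 48 h A and 1 without any other library. Haemocytes and fat body are known sources of collagen IV in the larva, and haemocyte marker sums were 13132 and 15851 at 48 h, against 128498 and 195351 at 6 h; their part in this fall was not tested. Integrins and linked proteins were mixed, with 4 higher and 6 lower of 17, near the 29.0% and 37.8% of all genes tested. Their median of -0.19 was -0.11 without 6 h B and turned to 0.13 with a common median. Among them mew, an integrin alpha subunit, rose to 6582 and 7838 at 48 h, against 3757 and 3529.6 at 6 h, and Pax, the adaptor paxillin, fell to 1957 and 1769, against 6853 and 8878.

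Larval cuticle and chitinase-like secreted proteins also fell. Lcp65Ag2, a larval cuticle protein (FBgn0020638, chromosome 3L, 6134697 to 6135274, minus strand; the annotation names this identifier Lcp65Ag1), had 7.35 and 4.17 at 48 h, against 31572 and 22781 at 6 h (log2 change -11.99, SE 0.30, adjusted p 0.000381). Lcp65Ab2 had 0.669 and 1.19 at 48 h and 114 and 117 at 6 h, and in all 3 of 4 cuticle proteins tested (of 6 listed) were lower (median -5.18). All 6 imaginal disc growth factor genes, chitinase-like secreted proteins, were lower, with a median of -3.97. Idgf2 had 197 and 153 at 48 h, against 3798 and 5401 at 6 h, and Idgf3 had 193 and 215, against 1978 and 3308. prc, an extracellular matrix protein known from the larval heart, had 6.69 and 6.55 at 48 h, against 8247 and 15596 at 6 h (log2 change -10.54). In each of these genes both 48 h libraries lay below both 6 h libraries by more than the gap between replicates.

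**Figure D4:**
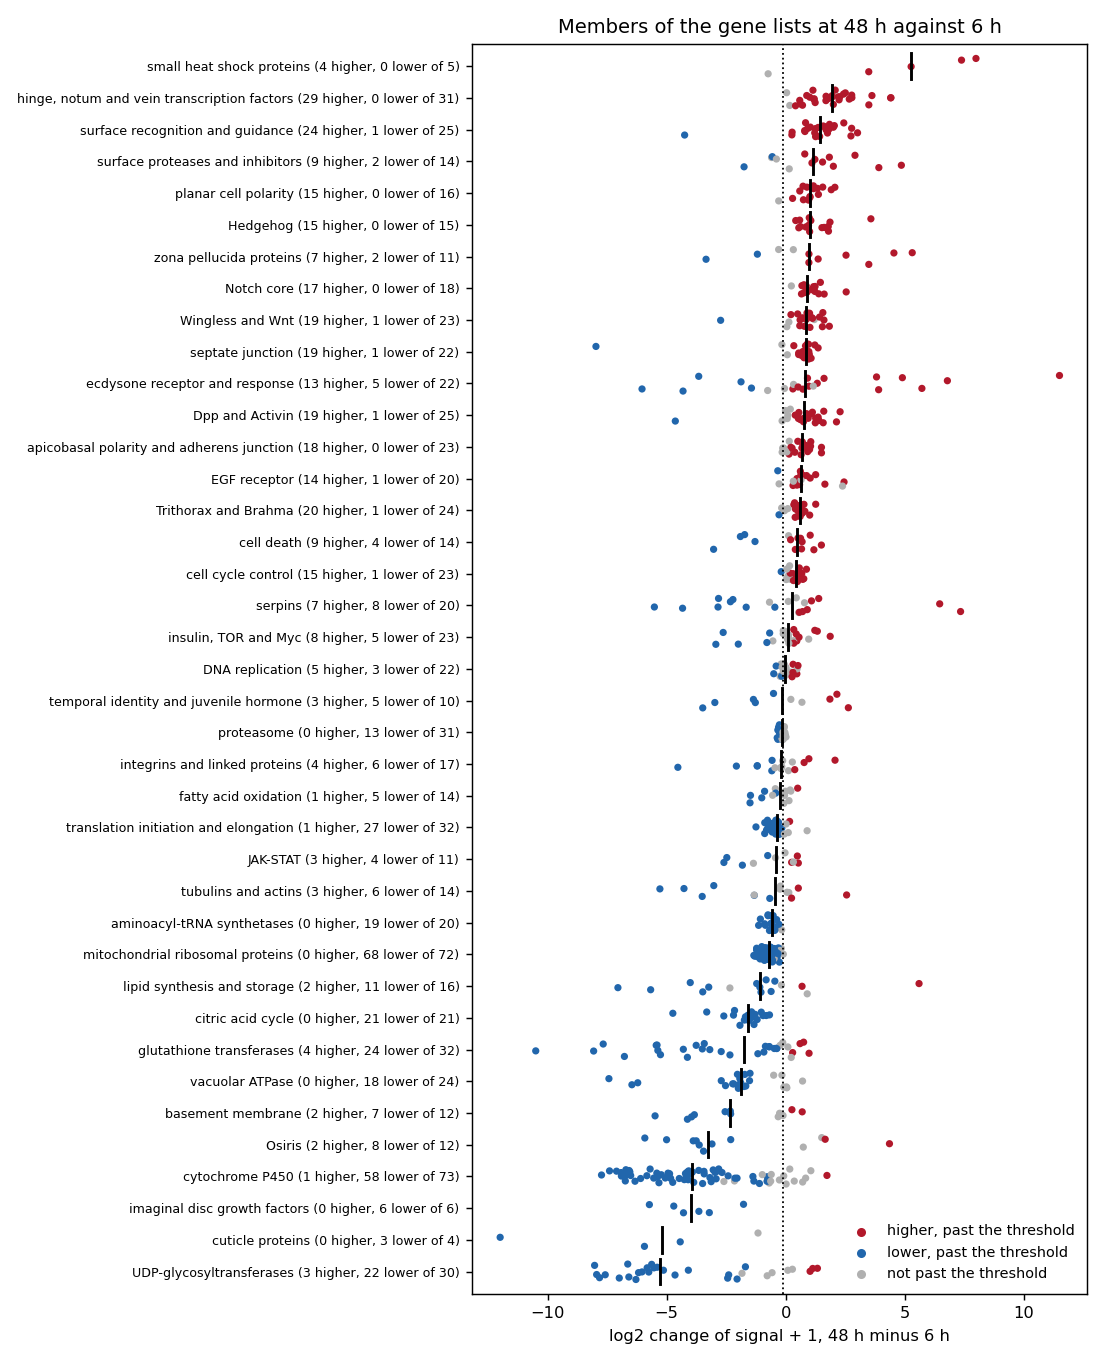
Log2 change of signal + 1 at 48 h minus 6 h (x axis) of every tested member of the 39 gene lists (y axis, ordered by median); red points were higher and blue points lower past the threshold, grey points did not pass, black bars are list medians and the dotted line is the median of all genes tested (-0.095). Patterning and recognition lists lie to the right of the dotted line, citric acid cycle, detoxification and imaginal disc growth factor lists to its left.

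Citric acid cycle genes and mitochondrial ribosomal protein genes were lower at 48 h. In the list of the citric acid cycle and linked enzymes all 21 genes tested fell, with a median of -1.58. Mdh2, the mitochondrial malate dehydrogenase (FBgn0262559, chromosome 3R, 18226396 to 18228718, plus strand), had 3014 and 2842 at 48 h, against 17280.1 and 18117 at 6 h (log2 change -2.60, SE 0.05, adjusted p 0.000361). kdn, citrate synthase, had 1743 and 1372 at 48 h, against 13505 and 17524 at 6 h, and Men, the malic enzyme that yields NADPH, had 988 and 1239, against 23939 and 36456. All 21 were also lower without any single library, and 18 were lower in the fit of all 10 libraries. Mitochondrial ribosomal proteins were lower in 68 of 72 cases and higher in 0, with a median of -0.70. With a common median 55 were lower (median -0.38), and after quantile normalization 58. For example mRpS35 had 689.9 and 726 at 48 h, against 1656 and 1641 at 6 h, and mRpL35 had 363 and 336, against 898 and 867. sesB, the ATP/ADP translocase of the inner membrane, had 29159 and 29868 at 48 h, against 104047 and 102247 at 6 h.

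Genes of fat synthesis fell with them. FASN1, fatty acid synthase (FBgn0283427, chromosome 2L, 3056598 to 3068177, plus strand), had 2876 and 3199 at 48 h, against 118399 and 201526 at 6 h (log2 change -5.67, SE 0.28, adjusted p 0.00051). ACC, the acetyl-CoA carboxylase that supplies it, had 3893 and 3684 at 48 h, against 34429 and 51924 at 6 h, and Lsd-1, a lipid droplet protein, had 130.4 and 235, against 1888 and 4238. The times did not overlap for any of these 3. Of 16 genes of lipid synthesis and storage, 11 were lower and 2 higher (median -1.06), 1 of them without 6 h A; in the fit of all 10 libraries 6 were lower. Hsl, a lipase, was among the higher members (1616 and 1736 at 48 h, against 996 and 1078 at 6 h). FASN3, a fatty acid synthase of the larval oenocytes, differed widely between the 48 h libraries (5347 and 410.5, against 30.8 and 28 at 6 h), and its call was lost without 6 h A (adjusted p 0.145) or 6 h B (0.152). Fatty acid oxidation genes gave no clear direction, with 1 higher and 5 lower of 14, 0 higher and 3 lower without 48 h A or 48 h B, 8 lower without 6 h A, 3 higher without 6 h B, and a median of -0.24 that was -0.41 without 6 h A and -0.05 without 6 h B and turned positive after quantile normalization (0.05) and with a common median (0.08). Fat body marker sums were 45423 and 111096 at 48 h, against 255707 and 525102 at 6 h, and their part in the fall of lipid genes was not tested.

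Enzymes that oxidise and conjugate hormones and foreign compounds fell as 3 families. Of 73 cytochrome P450 genes tested 58 were lower and 1 higher (median -3.92). After quantile normalization 40 were lower and 7 higher (median -2.54), and in the fit of all 10 libraries 39 were lower and 1 higher. Cyp12a4, a mitochondrial P450, had 45.5 and 21.4 at 48 h, against 5641 and 3495 at 6 h, and Cyp6w1 had 2.01 and 3.57, against 397 and 498. The higher one, Cyp310a1, had 2151 and 3204 at 48 h, against 627 and 985 at 6 h, but did not pass when 48 h B (adjusted p 0.0631) or 6 h A (0.0716) was left out. Among 32 glutathione transferases 24 were lower and 4 higher, with a median of -1.75; 2 were higher when any library but 6 h B was left out. GstD7 (FBgn0010043, chromosome 3R, 12378500 to 12379255, plus strand) had 4.68 and 1.19 at 48 h, against 5245 and 4971 at 6 h, while GstE11 was higher (2205 and 2101, against 1022 and 1153). GstS1, the sigma class member, did not pass (11201 and 11957 at 48 h, 9043 and 10658 at 6 h). Of the glutathione transferases, 19 were lower and 7 higher after quantile normalization (median -0.90). In the fit of all 10 libraries 16 were lower and 1 higher. UDP-glycosyltransferases were lower in 22 of 30 and higher in 3 (median -5.26; 1 higher without 48 h A). Ugt37B1 had 0 and 0.596 at 48 h, against 235 and 246 at 6 h, and Ugt316A1 was higher (3183 and 3633, against 1726 and 1604). Quantile normalization left 17 UDP-glycosyltransferases lower and 4 higher (median -3.35), and the fit of all 10 libraries 18 lower and 2 higher. Beside these families, the gut marker sums were 375 and 375 at 48 h and 207023 and 84504 at 6 h; their part in these falls was not tested.

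The vacuolar ATPase, a proton pump of endosomes, lysosomes and gut cells, had 18 genes lower and 0 higher of 24 tested, with a median of -1.89. Vha68-1, a subunit of the catalytic head, had 90.9 and 79.2 at 48 h, against 589 and 528 at 6 h, and Vha100-5, a membrane subunit, had 12 and 9.53, against 2389 and 1692 (log2 change -7.42, SE 0.26, adjusted p 0.000411). Vha100-1, the membrane subunit best known from neurons, did not pass (3181 and 3018 at 48 h, 3041 and 2926 at 6 h). The lower count was 10 without 48 h A, 8 without 48 h B and 4 in the fit of all 10 libraries.

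Genes of protein synthesis fell by smaller factors. Cytosolic aminoacyl-tRNA synthetases were lower in 19 of 20 cases and higher in 0 (median -0.59). With a common median 13 were lower (median -0.27), and after quantile normalization 19. HisRS had 2643 and 2565 at 48 h, against 5583 and 5842 at 6 h, and ValRS had 3608 and 3473, against 7262 and 7490.3 (log2 changes -1.13 and -1.06). In both genes the replicates of a time lay far closer together than the times. Of 32 translation initiation and elongation factors 27 were lower and 1 higher (median -0.37; 0 higher without 48 h A or 48 h B), with eIF3j, an initiation factor subunit, at 2387 and 2333 at 48 h, against 5507 and 5677 at 6 h. The lower count was 16 without 48 h A, 17 without 6 h A, 11 with a common median and 15 after quantile normalization, so this smaller shift depends on the scaling. Proteasome subunits showed no direction that held: 13 of 31 were lower and 0 higher, 5 were lower without 48 h A, 1 without 48 h B and 7 without 6 h B, and with a common median 0 were lower and 19 higher.

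Growth control genes were mixed. InR, the insulin receptor, rose to 4837 and 4249 at 48 h, against 1433 and 1064 at 6 h (log2 change 1.88, SE 0.17, adjusted p 0.00156). Thor, the translation inhibitor 4E-BP, fell to 223 and 223 at 48 h, against 1772 and 1069 at 6 h, and foxo, which encodes the transcription factor that activates both InR and Thor when insulin signalling is low, fell to 1287 and 1285, against 2086 and 2358. REPTOR-BP, a partner of a factor repressed by TOR, rose to 567 and 586, against 247 and 211. Myc did not pass (4288 and 5039 at 48 h, 3017 and 4456 at 6 h). Over all genes tested, 29.0% were higher and 37.8% lower. Of 23 insulin, TOR and Myc genes 8 were higher and 5 lower (median 0.12, 0.06 without 6 h A and 0.24 without 6 h B), with 5 higher without 48 h A or without 48 h B and 14 higher with a common median.

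Of 23 cell cycle control genes 15 were higher and 1 lower (median 0.45), with 0 lower without 48 h A, 48 h B or 6 h B, and the higher count was 9 without 48 h B and 8 in the fit of all 10 libraries. Cdk4, the partner kinase of cyclin D, had 2381 and 2431 at 48 h, against 1286 and 1332 at 6 h, and CycB, a mitotic cyclin, had 6570.0 and 7562, against 4281 and 4290.3. DNA replication genes gave no direction, with 5 higher and 3 lower of 22 and a median of -0.04 whose sign varied between alternatives (0.03 without 48 h A, -0.09 without 48 h B, -0.01 without 6 h A); 1 was higher and 1 lower without 48 h A, 0 higher and 1 lower without 48 h B, 2 higher without 6 h A, and 2 higher and 1 lower without 6 h B. Cell death genes were higher in 9 of 14 and lower in 4 (median 0.47), with 5 higher without 48 h B and 2 lower without it. hid, a death activator, rose to 2088 and 2125 at 48 h, against 657 and 837 at 6 h, as did the initiator caspase gene Dronc (2621 and 2098, against 1052 and 1004), whereas rpr, another activator, fell to 401 and 379.5, against 873 and 1038. Trithorax and Brahma genes, which keep chromatin active, were higher in 20 of 24 and lower in 1 (median 0.59; 0 lower without 48 h A, 48 h B or 6 h B), with trx at 15418 and 15526 at 48 h, against 6329 and 6538 at 6 h (log2 change 1.27, SE 0.04, adjusted p 0.000411).

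Cytoskeletal isotypes and serpins held members of both directions. Of 14 tubulins and actins 3 were higher and 6 lower, near the 29.0% and 37.8% of all genes tested. Their median of -0.45 was -0.14 without 48 h B and turned to 0.30 after quantile normalization. betaTub60D, a tubulin of differentiating cells, had 4492 and 3096 at 48 h, against 504 and 785 at 6 h. betaTub97EF, a tubulin known from the gut, had 280.1 and 273, against 6146 and 4667, and the muscle actin gene Act57B had 4609 and 3316, against 128385 and 180117. Serpins, inhibitors of serine proteases, were higher in 7 of 20 and lower in 8 (median 0.28, 0.11 without 6 h B), near the 29.0% and 37.8% of all genes tested, with 11 higher after quantile normalization. Spn43Aa had 2236 and 1641 at 48 h, against 8.56 and 13.3 at 6 h, and Spn88Eb had 11.4 and 22, against 542 and 1094 (log2 changes 7.35 and -5.51). Osiris genes, which encode membrane proteins of cuticle-forming cells, were lower in 8 of 12 and higher in 2 (median -3.27). After quantile normalization 4 were higher and 4 lower. The summed signal of all 20 Osiris genes overlapped between times (387 and 559 at 48 h, against 382 and 458 at 6 h). Osi7 had no read in either 48 h library and 24 and 40 at 6 h.

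Some abundant genes moved much signal without a large fold. fax, a membrane protein of developing axons, had 38378 and 39985 at 48 h, against 10049.9 and 10301 at 6 h, and Inx2, a gap junction channel subunit, had 38756 and 42396, against 13729 and 13507. His3.3B, a replacement histone, had 45687 and 51549.6 at 48 h, against 22456 and 22829.9 at 6 h. In all 3 the times did not overlap, and the 48 h replicates lay further apart than the 6 h replicates. eEF1alpha1, an elongation factor, was lower (325548 and 354861 at 48 h, against 476804 and 488972 at 6 h, log2 change -0.51, adjusted p 0.039), but the call was lost under 9 alternatives and its sign turned after quantile normalization (0.18). All genes higher at 48 h together took 38.2% and 38.4% of the signal in 48 h A and B, against 19.0% and 17.3% in 6 h A and B. The genes lower at 48 h took 29.7% and 30.1% in the 48 h libraries, against 54.1% and 53.9% in the 6 h libraries.

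Genes with no read at 1 of the times were more often without reads at 48 h. Of the genes of the table, 1115 had no read in either 48 h library and at least 1 at 6 h, and 237 had none at 6 h and at least 1 at 48 h, although the 48 h libraries were deeper. A mean signal of at least 100 at the other time was reached by 30 of the 1115 and by 1 of the 237. With a floor of 3 reads per library, CG13047 (536 and 1024 at 6 h) was at least 389-fold lower at 48 h, and CG13064 (169.8 and 90.6 at 48 h) at least 32.5-fold higher. St2, a sulfotransferase gene (FBgn0037665, chromosome 3R, 9251843 to 9253514, plus strand), came close to this pattern, with 1392 and 1109 at 48 h and 0.856 and 2.67 at 6 h.

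Genes higher and lower at 48 h differed in length. The median genomic span was 3.81 kb for genes higher at 48 h and 2.24 kb for genes lower at 48 h, against 2.57 kb for all genes tested and 2.20 kb for genes that did not pass. Of the 4082 genes spanning under 2 kb, 18.5% were higher and 43.3% lower, and of the 254 spanning over 50 kb, 48.0% were higher and 29.9% lower. Signal varied with span too, though not in 1 direction: the median of the mean signal over the 4 libraries was 313 under 2 kb, 769.7 from 2 to 5 kb, 1374 from 5 to 10 kb, 1286 from 10 to 20 kb, 1176 from 20 to 50 kb and 1126 over 50 kb. The part of signal in this difference was not tested. Genes of chromosome 4 had a median span of 9.54 kb. Of its 76 genes tested 40 were higher and 16 lower (52.6% and 21.1%, median log2 change 0.39). Of 20 genes of the mitochondrial genome 0 were higher and 11 lower, with a median of -0.52 that was -0.20 with a common median. Mitochondrial genes took 3.75% and 4.37% of reads in 48 h A and B, against 3.71% and 4.02% in 6 h A and B. The other arms had between 27.2% and 31.5% of genes higher.

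**Figure D5:**
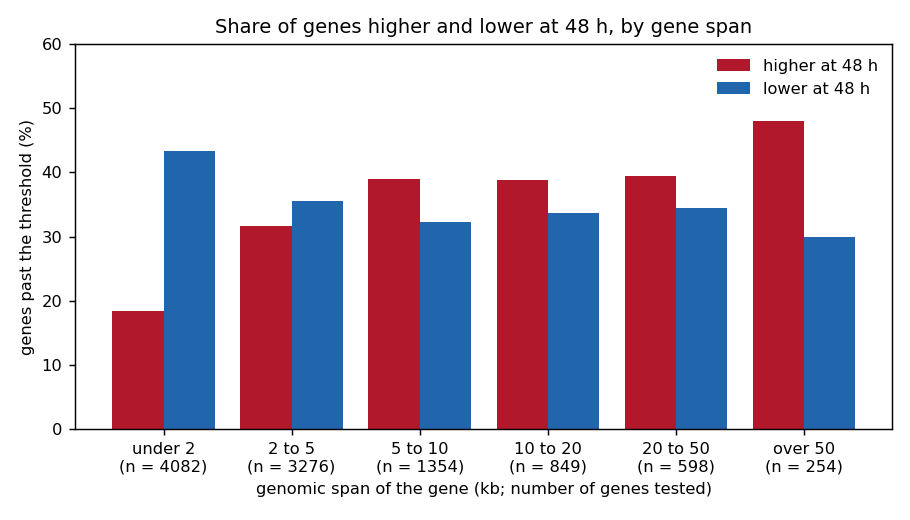
Share of genes tested that were higher (red) or lower (blue) at 48 h (y axis, percent) by the genomic span of the gene (x axis, kb, with the number of genes). The share higher was 18.5% under 2 kb and 48.0% over 50 kb, and the share lower 43.3% and 29.9%.

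The middle times show when the gap between 48 h and 6 h opened. For the 808 genes at least 2-fold higher, the median share of the log2 change reached at 15, 25 and 35 h was 31.8%, 58.3% and 83.6%, and for the 2721 genes at least 2-fold lower it was 18.6%, 51.5% and 86.2%. The means of all 5 times stood in order in 440 of the 808 and in 824 of the 2721 genes. Median signal of the 1128 genes at least 16-fold lower was 429, 367, 46.3, 13.2 and 4.54 at 6, 15, 25, 35 and 48 h. Individual genes departed from these medians. ImpE2 had means of 20.5, 33.7, 60.3, 3552 and 64052 over the same times, with the largest step in signal after 35 h and the largest step in log2 between 25 and 35 h. Hsp23 had 263, 3349.5, 5898, 24369 and 66842, a rise of the mean at every step, although 15 h A (611) and 15 h B (6088) lay far apart and 15 h B was above 25 h A (4851). Among falling genes, ValRS had 7376, 4918, 4181, 3479 and 3540.4, most of its fall lying between 6 and 15 h, while Mdh2 had 17698, 23292, 13709, 3073 and 2928. The higher mean of Mdh2 at 15 h rests on 15 h A (36198), since 15 h B (10385) lay below both 6 h libraries. Idgf2 had 1653 and 1495 in 15 h A and B and 5233 and 2463 in 25 h A and B, so both 25 h libraries lay above both 15 h libraries. FASN1 showed no such order, with 113315 and 63538 in 15 h A and B and 208796 and 44813 in 25 h A and B.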

How the data were processed

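RNA of wing discs was sequenced in 10 libraries, 2 at each of 5 times. Per the labels, the molecule is polyA RNA, while the extraction protocol describes stranded total RNA with rRNA depletion. Per the submitters' processing notes, STAR 2.7.10a, featureCounts and the build dm6 (BDGP6) were used; the strand setting is not given in the sources used here. The table deposited by the authors holds signal: read counts per gene divided by 1 size factor per library. Every value came back to a whole read within 0.001 reads.

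Groups were taken from the titles. Signals were tested as log2(signal + 1) with limma 3.58.1 (trend, R 4.3.3) on the 4 libraries alone, with 2 residual degrees of freedom, Benjamini-Hochberg adjustment over the 10453 genes with a value of at least 10 in 2 or more libraries, and a threshold of 0.05; the other 2588 genes were left out. edgeR 4.0.16 and DESeq2 1.42.0 on the recovered reads, other scalings, filters, pseudocounts, sample sets and leaving out each library were tried as alternatives. Lists are described by counts and medians, without a set test. Members and lists were chosen with earlier results of these data known. Named genes are regulators set by name, the 8 largest rises, falls, gains and losses of signal, up to 4 members per list and direction with the largest change plus the most abundant member that did not pass, and the highest genes without reads at 1 time. With 3 reads as the floor per library, bounds cover counting error only. Coordinates are from the Ensembl annotation of BDGP6.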

Additional observations from a re-analysis of the deposited data

How the results depend on the processing

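All 15 alternatives planned were run. The number of genes lower at 48 h (3949) ranged from 2646 to 3354 when 1 library was left out, and the number higher (3027) from 1552 (without 48 h B) to 2558, with 1716 without 48 h A; a time left with 1 library is assumed to vary like the other. Quantile normalization gave 5072 higher and 2692 lower genes, the common median 4390 and 3130, edgeR 3331 and 3600, DESeq2 3084 and 3808, and the fit of all 10 libraries 2332 and 2798. With the replicate letter as a block (replicate block), 2651 were higher and 3691 lower. Over all genes tested, the deviations of 48 h A and 6 h A from the means of their times correlated at 0.0070 (Pearson). A coefficient over all genes does not show whether some genes share a batch by letter, which was not tested. Of 121 named genes past the threshold, 114 kept call and direction under all 15 alternatives. Signs turned for CG7409 (log2 0.99) and eEF1alpha1 (0.18) after quantile normalization, and for LanA after quantile normalization (0.10), with a common median (0.069) and without 6 h B (0.0027; -0.50 without 6 h A); CG7409 and LanA did not pass in the comparison itself. The cause was not tested. With 2 libraries per time, small changes may go uncalled, and below about 3 reads signals show only that a gene was near the floor.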
